A study of Mus musculus with 6 samples.

Results

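The 10 genes described here encode collapsin response mediator proteins (CRMPs), doublecortins and stathmins, 3 families that act on neuronal microtubules. They are Crmp1, Dpysl2, Dpysl3, Dpysl4 and Dpysl5 for the CRMPs, Dcx, Dclk1 and Dclk2 for the doublecortins, and Stmn1 and Stmn2 for the stathmins. They were chosen by symbol with earlier results of these data known, as 10 of the 24972 genes in the table. All 10 passed the filter on low values that left 15800 genes to test. RNA sequencing was performed on mouse cortex at postnatal day 7 (P7), with 3 libraries from wildtype mice and 3 labelled Zmiz1-KO. Both groups carry floxed alleles of Zmiz1, a transcriptional coregulator. Wildtype mice are Zmiz1f/f, and Zmiz1-KO mice are Zmiz1f/f;Emx1Cre, in which Cre is made in the Emx1 lineage, that is, in dorsal forebrain progenitors and the excitatory neurons and glia that descend from them. Interneurons and microglia arise outside that lineage and keep Zmiz1, so a whole cortex is a mixture of targeted and untargeted cells. The controls named in the labels lack Cre, so any effect of Cre itself cannot be told apart from that of the deletion. The labels do not say whether each library is a separate animal, so the p-values measure the spread between these samples. Each group held both male and female libraries by their sex-linked genes, hence at least 2 mice.

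Microtubules are polymers of tubulin that give axons and dendrites their tracks and push the leading process of a migrating neuron. CRMPs are cytosolic phosphoproteins that bind tubulin and other cytoskeletal partners, and they were first known as carriers of the semaphorin 3A signal that collapses growth cones. Doublecortins bind along the microtubule wall and stabilize it, and mutations of DCX cause lissencephaly and subcortical band heterotopia in humans. Stathmins hold free tubulin and promote depolymerization. All 3 families are abundant in newborn and growing neurons of the cortex, where kinases such as Cdk5 and Gsk3b phosphorylate several of their members.

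None of the 10 genes passed an adjusted p of 0.05 in limma, but they did not all sit at the same place. Dcx, Dpysl3 and Dpysl2 were lower by 0.16, 0.14 and 0.13 on the log2 scale in the libraries labelled Zmiz1-KO, with no overlap between the groups, and Dpysl4 was higher by 0.10, again with no overlap. The other 6 genes, Crmp1, Dpysl5, Dclk1, Dclk2, Stmn1 and Stmn2, differed by log2 fold changes of -0.04 to 0.02 and their groups overlapped. Values are the authors' normalized counts, and each log2 fold change is the mean of log2(value + 1) in the libraries labelled Zmiz1-KO minus that in wildtype, from limma over all 15800 genes. The paper lists Dpysl2 and Dpysl3 among its differentially expressed genes, called by the authors' own test for counts. Here their limma adjusted p was 0.331 and 0.123. The authors' test was not run here, and why the calls differ was not tested.

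Before the genes of interest, the label itself was checked. Zmiz1 was not lower but higher under the label of its deletion, with a mean of 7836 ± 339 in wildtype and 9794 ± 143 in the other group (SD, n = 3 per group), which is 0.32 on the log2 scale (limma adjusted p = 0.00125). A value per gene cannot separate transcripts with and without the floxed part, so the groups are called by their labels throughout, and every sign given here would turn if the labels were exchanged. By quantitative PCR, the paper reports lower Zmiz1 in its Zmiz1-KO samples than in controls, the opposite direction to the values here. Whether those samples are the ones sequenced is not stated there, and why the directions differ was not tested. Emx1, the gene whose promoter drives Cre, was singled out after its values were seen. It had 763 ± 67.6 normalized counts in wildtype and 529 ± 55.1 in the other group (SD, n = 3 per group), which is -0.53 on the log2 scale (limma adjusted p = 0.0150), without overlap. Whether either gene bears on the labels was not tested. Xist and Ddx3y split each group into 1 female library, wildtype replicate 3 and replicate 2 labelled Zmiz1-KO, and 2 male libraries. Xist stood at 24403 and 25307 in the female libraries and at 12.9 to 57.3 in the others, and Ddx3y at 0 and 1.89 against 1250 to 1483. The labels name cortex as the tissue, although their protocol speaks of isolating progenitors. The summed level of 8 neuronal genes was 112051 to 118761 over the 6 libraries, and that of 6 progenitor and cell cycle genes was 5348 to 6104. Values summed to 32661979 to 33239707 per library after the authors' scaling, and the most common low value was 1.83 to 2.11. Only 19.5 to 28.1% of the low values of a library lay at it, so it does not fix what 1 read is worth. Pairs of libraries within a group had a median absolute log2 difference of 0.080 to 0.109, and pairs across the groups 0.099 to 0.130. With no reference for libraries of the same animal, these values cannot show whether any pair shares one.

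Per length of transcript, both stathmins and all CRMPs except Dpysl4 lay above the doublecortins when all exons were counted. Normalized counts were divided by the length of all exons of a gene in GENCODE on GRCm38, and in wildtype Stmn1 stood first with 25847 ± 1544 per kb (SD, n = 3). Dpysl3 followed with 14743 ± 598 per kb and Stmn2 with 11407 ± 572. Crmp1 had 8658 ± 446 per kb, Dpysl5 had 6197 ± 231 and Dpysl2 had 3588 ± 223. Below these came Dclk1 with 2353 ± 58.4 per kb and Dcx with 1857 ± 29.8. Dpysl4 (859 ± 7.91 per kb) and Dclk2 (495 ± 12.9) were the lowest of the 10. The order was the same in the libraries labelled Zmiz1-KO, and in neither group did the 3 values of a gene overlap those of its neighbour in the order. Divided instead by the length of the longest coding transcript, Stmn2, Crmp1 and Dpysl3 followed Stmn1 in that order and Dclk1 stood above Dpysl2, so these ranks rest on the transcript length that is assumed. In total normalized counts, the 10 genes made up 1.14 to 1.26% of a library.

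**Figure D1:**
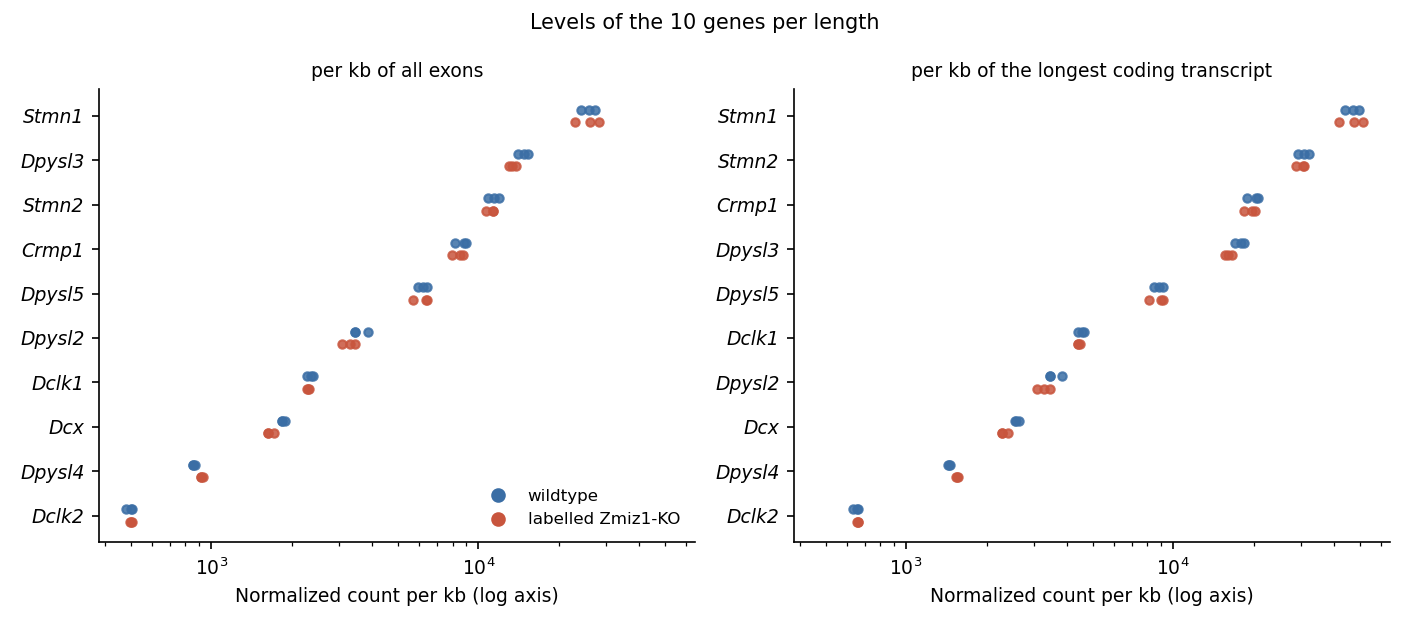
Normalized counts per kb on a log axis for each of the 10 genes, with 1 point per library, by the length of all exons (left) and of the longest coding transcript (right). Stmn1 is highest and Dclk2 lowest in both panels, while Dpysl3 lies above Stmn2 in the left panel and below Stmn2 and Crmp1 in the right one.

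Among the CRMPs, groups did not overlap in Dpysl3 and Dpysl2, both lower under the label Zmiz1-KO, and in Dpysl4, which was higher. Dpysl3, also called CRMP4, acts in growth cones where actin and microtubules meet, and lies on the minus strand at chr18:43320984-43438286 of GRCm38. Wildtype replicates 1, 2 and 3 held 101149, 93278 and 97844 normalized counts of Dpysl3, against 91183, 85789 and 88159 for those labelled Zmiz1-KO. All 3 of the latter lay below the lowest wildtype library. The means were 97423 ± 3953 and 88377 ± 2703 (SD, n = 3 per group). The log2 fold change of Dpysl3 was -0.14 (standard error 0.035, 95% confidence interval -0.22 to -0.07), with an unadjusted p of 0.00104 and a limma adjusted p of 0.123. Without wildtype replicate 2, its lowest wildtype library, the limma adjusted p was 0.0436, and over the other 5 fits that left out a library it ran from 0.147 to 0.484.

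Dpysl2, or CRMP2, which binds tubulin dimers and promotes axon formation, lies on the minus strand at chr14:66802864-66868688. Its wildtype libraries held 17378, 15602 and 15669 normalized counts, against 15565, 14889 and 13932 under the label Zmiz1-KO. Wildtype replicate 1 stood apart above the other two, and the lowest wildtype library lay just above the highest of the other group. The means of 16216 ± 1007 and 14795 ± 821 (SD, n = 3 per group) gave a log2 fold change of -0.13 (standard error 0.049, 95% confidence interval -0.24 to -0.03). Its limma adjusted p was 0.331, and without wildtype replicate 1 the log2 fold change was -0.08, a change in size of over 1.5 times.

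Dpysl4, or CRMP3, the least abundant CRMP gene here, was the only 1 of the 10 whose 3 values under the label Zmiz1-KO all lay above wildtype. It lies on the plus strand at chr7:139086001-139102704. The wildtype libraries had 5128, 5102 and 5194 normalized counts and the others 5553, 5464 and 5488. Replicates were close in both groups (5141 ± 47.3 and 5501 ± 46.3, SD, n = 3 per group), and the difference between the means was larger than either spread. The log2 fold change was 0.10 (standard error 0.038, 95% confidence interval 0.02 to 0.18) and the limma adjusted p 0.346. The standard error in limma rests also on the variance of other genes of like level.

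Crmp1 and Dpysl5 overlapped between the groups. Crmp1, which also takes part in semaphorin 3A signaling, lies at chr5:37241940-37292133 on the plus strand. It had 63436, 57457 and 62113 normalized counts in wildtype and 60295, 55897 and 61682 under the label Zmiz1-KO, with a log2 fold change of -0.04 (95% confidence interval -0.14 to 0.05, limma adjusted p = 0.803). In each group replicate 2 was the lowest library. Dpysl5, or CRMP5, which counters neurite outgrowth, lies at chr5:30711564-30799375 on the same strand. With 47331, 43930 and 45855 normalized counts in wildtype and 46807, 42017 and 47322 in the other group, Dpysl5 had a log2 fold change of -0.01 (95% confidence interval -0.11 to 0.09, limma adjusted p = 0.957). Overlap and a p over the threshold do not show that either gene was equal in the groups.

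**Figure D2:**
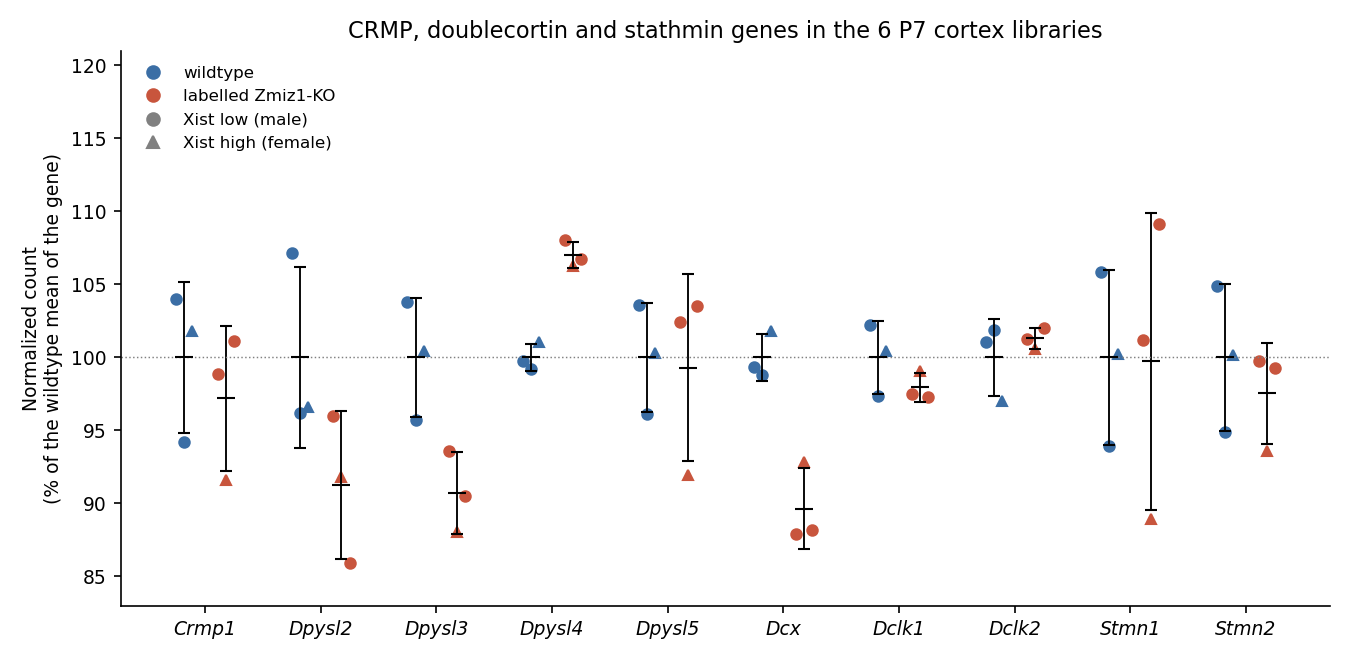
Normalized count of each gene in each library as a percentage of the gene's wildtype mean, with replicates 1 to 3 from left to right, triangles for the female libraries, and black bars for mean ± SD (n = 3). Dcx, Dpysl2 and Dpysl3 have all 3 libraries labelled Zmiz1-KO below wildtype, Dpysl4 has them above, and the other 6 genes overlap.

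Of the doublecortins, Dcx had the smallest p of the 10 genes and ranked 80 of the 15800 tested. Doublecortin is made by migrating and newly arrived neurons, and its gene lies on the minus strand of the X chromosome at chrX:143855842-143933311. Its values were 23334, 23202 and 23911 normalized counts for wildtype replicates 1, 2 and 3, against 20643, 21808 and 20704 for replicates labelled Zmiz1-KO. Each wildtype library lay above each of the others. The means were 23482 ± 377 and 21052 ± 655 (SD, n = 3 per group), so the second was 0.896 times the first. The log2 fold change of Dcx was -0.16 (standard error 0.035, 95% confidence interval -0.23 to -0.08), with an unadjusted p of 0.000343 and a limma adjusted p of 0.0678. Without replicate 2 labelled Zmiz1-KO, the limma adjusted p was 0.0164, and over the other 5 fits that left out a library it ran from 0.0826 to 0.417.

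Since Dcx is X-linked, its values were also read by the sex of the library. In each group the highest Dcx value was that of the female library. Among males alone, 2 libraries per group, the means were 23268 and 20674 and the log2 fold change was -0.17 (limma adjusted p = 0.0592). The female pair had 23911 and 21808 normalized counts, a difference of -0.13 with no replicate check. Dcx was thus lower under the label Zmiz1-KO within both sexes. Over the 10 genes, 7 had the same sign in both sexes, and Crmp1, Dpysl5 and Stmn1 did not.

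Dclk1 and Dclk2 join doublecortin domains to a kinase domain. Dclk1, at chr3:55242364-55539068 on the plus strand, had 36794, 35027 and 36144 normalized counts in wildtype and 35093, 35662 and 35004 in the other group, with overlapping values. Its log2 fold change was -0.03 (95% confidence interval -0.10 to 0.04, limma adjusted p = 0.811). The gene also makes short transcripts without the doublecortin domains, or without the kinase, which a single value per gene does not separate. Dclk2, at chr3:86786151-86920852 on the minus strand, had 5283, 5326 and 5071 normalized counts in wildtype and 5294, 5258 and 5334 under the label Zmiz1-KO, a log2 fold change of 0.02 (95% confidence interval -0.06 to 0.10, limma adjusted p = 0.912).

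The stathmin genes overlapped between the groups, and Stmn1 had the widest interval of the 10 genes. Stmn1, whose protein binds free tubulin in dividing cells and young neurons alike, lies at chr4:134468320-134473843 on the plus strand. It had 52579, 46649 and 49806 normalized counts in wildtype. The values under the label Zmiz1-KO were 50261, 44182 and 54213, which thus held both the lowest and the highest value. The log2 fold change of -0.01 had a 95% confidence interval of -0.22 to 0.21 (limma adjusted p = 0.990). Stmn2, or SCG10, found in growth cones, lies at chr3:8509360-8561606 on the plus strand, and had 67044, 60641 and 64013 normalized counts in wildtype against 63761, 59788 and 63451. Its values overlapped, with a log2 fold change of -0.04 (95% confidence interval -0.12 to 0.05, limma adjusted p = 0.811).

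How well reads can be assigned to these genes was looked at from their transcripts. The 5 CRMP genes, Dcx and Dclk2 share no 75-base stretch with transcripts of any other gene, so near copies within the families are told apart. For Dclk1 the shared part was 0.109% and for Stmn2 0.304%. Stmn1 shares 15.4% of its stretches, all with Gm11223, so its value is uncertain to that extent. The library kit does not mark the strand, and antisense transcripts of Dclk1 cannot be told apart from its own.

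Each count of the 10 genes was read beside the share of all genes tested. The genes were chosen with earlier results of these data known, so a count above that share may follow from the choice. At an adjusted p of 0.05, 0 of 10 passed, where 0.411% of all genes did (65 genes, limma), and limma-voom gave 0 of 10 as well. At an adjusted p of 0.1, Dcx alone passed, against 0.671% of all genes. At an unadjusted p under 0.05, 4 of 10 passed, against 11.0% of all genes. Of these 4, Dcx, Dpysl3 and Dpysl2 were lower, where 5.84% of all genes were, and Dpysl4 was higher, where 5.13% were. The same 4 genes had groups that did not overlap, 3 of them lower (8.16% of all genes) and 1 higher (8.10%). The median standard error was 0.039 for the 10 genes and 0.079 for all genes tested. The shares of all genes are therefore not those of genes measured with like precision. By sign alone 8 of 10 were lower, against 50.1% of all genes, but without replicate 2 labelled Zmiz1-KO, or without wildtype replicate 1, 5 of 10 were. The 10 genes had a median log2 fold change of -0.03, against -0.00018 for all genes tested. In absolute terms the median was 0.038 against 0.075, and over the 500 genes of highest mean it was 0.039.

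**Figure D3:**
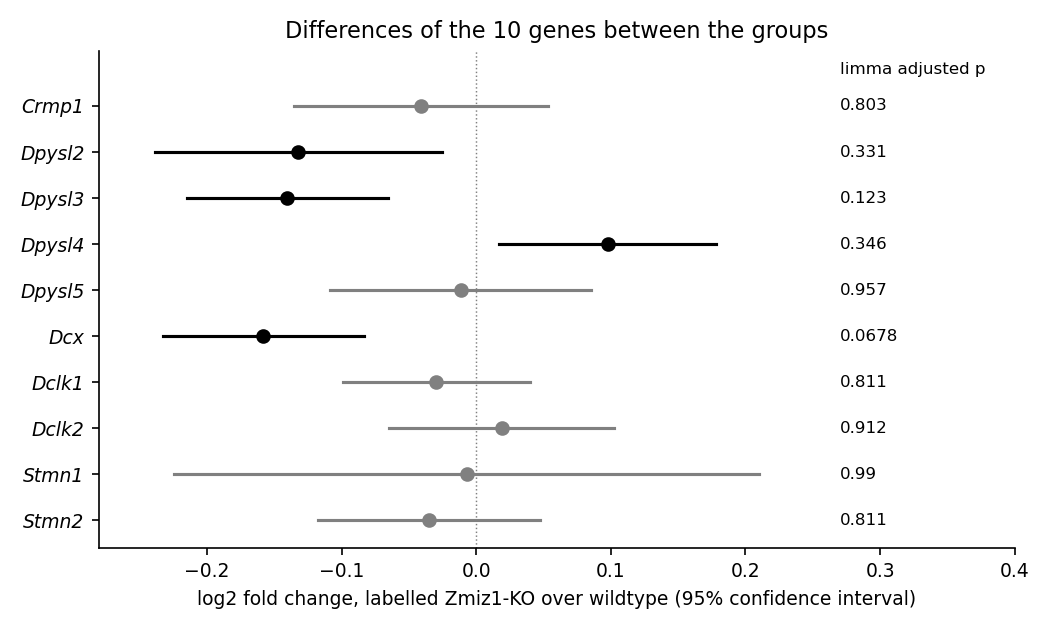
Log2 fold change of each gene, libraries labelled Zmiz1-KO over wildtype, with its 95% confidence interval from limma and the adjusted p over all genes. Black marks the 4 genes whose groups did not overlap, Dcx, Dpysl3 and Dpysl2 below 0 and Dpysl4 above, and no adjusted p is at or under 0.05.

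Part of the spread was shared by the genes within a library. Wildtype replicate 1 held the highest value of the 6 libraries in 6 of the 10 genes, and replicate 2 labelled Zmiz1-KO held the lowest in 5. Ratios within a library take such shared shifts out, and 4 pairs were compared. Dcx relative to Dclk1, a close relative, had log2 ratios of -0.66, -0.59 and -0.60 in wildtype, and of -0.77, -0.71 and -0.76 in the libraries labelled Zmiz1-KO. The groups did not overlap, and the means of -0.62 ± 0.036 and -0.74 ± 0.030 (SD, n = 3 per group) differed by -0.13. The exact permutation test, two-sided, gave p = 0.1, the smallest that 3 against 3 can give, and 0.4 after Benjamini-Hochberg adjustment over the 4 pairs. Dpysl3 relative to Dpysl2 differed by -0.01 (exact permutation p = 0.9), Crmp1 relative to Dpysl2 by 0.09 (exact permutation p = 0.4) and Stmn1 relative to Stmn2 by 0.03 (exact permutation p = 0.7). In these 3 pairs the groups overlapped.

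**Figure D4:**
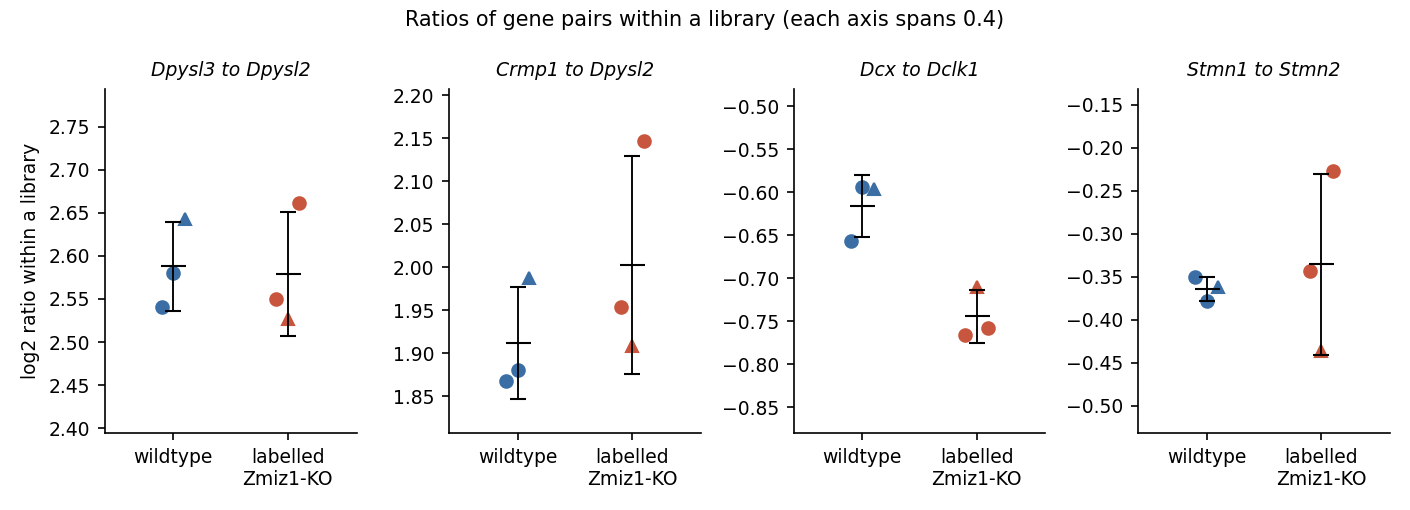
Log2 ratio of 4 gene pairs within each library, with triangles for the female libraries and black bars for mean ± SD (n = 3). Only the ratio of Dcx to Dclk1 has groups that do not overlap, with wildtype at -0.66 to -0.59 and the libraries labelled Zmiz1-KO at -0.77 to -0.71.

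The makeup of each family was read in normalized counts per kb of exon, and differed in part from the levels. Of the CRMP total, Dpysl3 held 43.3 ± 0.095% in wildtype and 41.6 ± 0.55% in the libraries labelled Zmiz1-KO (SD, n = 3 per group), with no overlap. The share of Dpysl4 was 2.53% in wildtype and 2.86% in the other group, and that of Dpysl5 was 18.2% and 19.1%, also without overlap, although the level of Dpysl5 itself overlapped. The share of Dpysl2 was 10.5 ± 0.36% and 10.2 ± 0.63%, and overlapped. Within the doublecortins Dcx held 39.5 ± 0.57% in wildtype and 37.2 ± 0.56% in the other group, while Dclk2 held 10.5% and 11.2%. The shares of Dcx, Dclk1 and Dclk2 did not overlap between the groups, although the levels of Dclk1 and Dclk2 did. Stmn1 made up 69.4% and 69.8% of the stathmin pair. Shares of 1 total are bound to each other, so a lower share of one gene raises those of the rest.

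The other genes of the microtubule system were read by role, in 9 lists of 119 genes, 114 of which were tested. None had an adjusted p at or under 0.05 (0 of 114, limma), and none at or under 0.1. limma-voom gave 0 of 114 at 0.05 as well. Without replicate 2 labelled Zmiz1-KO, 4 passed, namely Map1b, Apc, Dst and Nav3, all lower. With the replicate number as a block 1 passed, Apc, and in male libraries alone 2 did, Tuba4a and Apc. Tuba4a was higher there, with 4083 and 3960 normalized counts in male wildtype libraries and 8510 and 8618 in the other males. The female libraries went the other way, with 8081 in wildtype and 3928 under the label Zmiz1-KO. Over all 6 libraries its log2 fold change was 0.38 (limma adjusted p = 0.861). At an unadjusted p under 0.05 there were 18, or 15.8% of the 114 against 11.0% of all genes, and 16 of these were lower. By sign, 74 genes were lower and 40 higher, so 64.9% were lower, against 50.1% of all genes. The median log2 fold change was -0.03, against -0.00018 for all genes tested. The count of lower genes was 65 without wildtype replicate 1, without replicate 2 labelled Zmiz1-KO, and in male libraries alone. It was 82 without wildtype replicate 2.

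The list of plus-end binding proteins, which ride the growing tip of microtubules, had 12 of 14 genes lower and a median log2 fold change of -0.06. Apc, which anchors plus ends at the cortex of the cell, had 31296 ± 1075 normalized counts in wildtype and 28061 ± 1174 in the libraries labelled Zmiz1-KO (SD, n = 3 per group, log2 fold change -0.16, limma adjusted p = 0.107). Nav2, a neuron navigator, had 6107 ± 118 and 5564 ± 148 (SD, n = 3 per group, log2 fold change -0.13, limma adjusted p = 0.201). Both had groups that did not overlap. Among 12 proteins that bind along the microtubule lattice, 9 were lower, with a median of -0.03. Map9 was at -0.12 on the log2 scale (limma adjusted p = 0.306) and Map1b, abundant in growing axons, at -0.15 (limma adjusted p = 0.426).

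Semaphorin 3A, its receptors and their effectors, which act upstream of the CRMPs, had 9 of 10 genes lower and a median of -0.05. The summed level of these 10 genes was 67023 to 68753 in wildtype and 65321 to 65441 under the label Zmiz1-KO. L1cam and Plxna1 weighed most in it, with wildtype means of 20921 and 16674, and the groups overlapped in L1cam. Sums of the plus-end binding proteins did not overlap either (162100 to 165242 and 152200 to 159018). Those of the remaining microtubule lists did. Plxna3 and Plxna1, plexins that transmit the signal, had log2 fold changes of -0.12 and -0.08 (limma adjusted p = 0.295 and 0.446). Known partners of Dpysl2 were lower in 6 of 9 cases, with a median of -0.05. They include Kif5b, a kinesin-1 motor (log2 fold change -0.14, limma adjusted p = 0.216), and Cyfip1, of the WAVE complex (-0.11, limma adjusted p = 0.338). The list of Lis1, dynein and reelin genes of neuronal migration had 12 of 17 lower and a median of -0.04. The dynein subunits Dync1i2 and Dync1li2 had log2 fold changes of -0.11 each (limma adjusted p = 0.328 and 0.335).

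In the remaining lists the signs were mixed. Of 24 kinases and phosphatase subunits that act on CRMPs, doublecortin or stathmins, 14 were lower, with a median of -0.01. Dyrk1a and Rock2 had the smallest p values there, both with a difference of -0.09 on the log2 scale (limma adjusted p = 0.485 and 0.510). Severing enzymes and depolymerizing kinesins split into 5 higher and 5 lower. Spast, the severing enzyme spastin, differed by -0.13 on the log2 scale (limma adjusted p = 0.275) and the low gene Fignl2, with means of 38.4 and 61.3 normalized counts, by 0.72 (limma adjusted p = 0.348). Of 14 tubulin genes 8 were higher and 6 lower, with a median of 0.0057, and Tubb4a (-0.07, limma adjusted p = 0.533) and Tubg1 (0.10, limma adjusted p = 0.601) had the smallest p values. Tuba1c, singled out after its values were seen, had 404 normalized counts in wildtype replicate 1 and 16722 to 17616 in the other 5 libraries. Of 9 family relatives 4 were tested, namely Dcdc2a (0.24, limma adjusted p = 0.524), Dclk3 (0.09, limma adjusted p = 0.790), Stmn3 (0.03) and Stmn4 (-0.01).

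**Figure D5:**
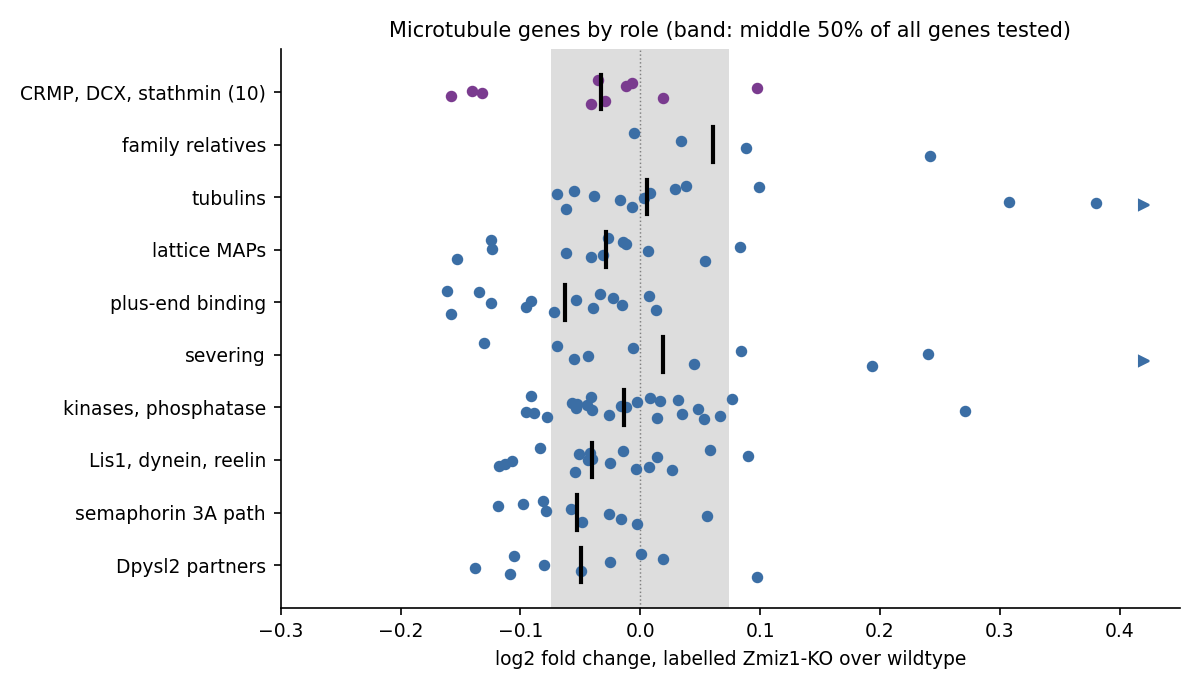
Log2 fold change of each tested gene in the 10 genes of interest (purple) and in the 9 lists of microtubule genes (blue), with black bars for list medians and a grey band from -0.07 to 0.07 that holds the middle 50% of all genes tested. Most points lie in or near the band, the list medians run from -0.06 for plus-end binding proteins to 0.06 for family relatives, and arrowheads stand for Tuba1c at 1.78 and Fignl2 at 0.72, beyond the axis.

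The 10 genes are not expressed alike by all cells of the cortex, and in bulk tissue fewer cells of a type and less RNA per cell cannot be told apart. Marker lists for other cell types therefore belong beside these values. The 10 markers of neuroblasts and newborn neurons, the cells richest in Dcx, had a summed level of 25914 to 27126 in wildtype and of 24291 to 25430 in the libraries labelled Zmiz1-KO, without overlap. None of these markers passed the threshold, 5 had an unadjusted p under 0.05, and 6 were higher and 4 lower, with a median of 0.07. The abundant markers Cd24a (log2 fold change -0.14, limma adjusted p = 0.243) and Sox4 (-0.11, limma adjusted p = 0.347) were among the lower ones. Abundant genes weigh most in the sum, and Cd24a, Sox4 and Sox11 had wildtype means of 12344, 5351 and 5039 normalized counts. The sum thus does not stand for the list as a whole. Dlx5 and Dlx6, of interneuron and olfactory precursors, were higher, with 0.32 and 0.54 (limma adjusted p = 0.288 and 0.123). The 8 genes of maturing neurons summed to 113218 to 118761 and 112051 to 115214 (6 lower, 2 higher). The 6 genes of growing axons summed to 175140 to 175464 and 175003 to 178680 (4 lower, 2 higher). The part of cell composition in the values of Dcx, Dpysl2 and Dpysl3 was not tested.

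The summed levels of interneuron, striatal, oligodendrocyte and meningeal markers did not overlap between the groups. All 9 tested interneuron markers were higher (median 0.30, none past the threshold and 5 with an unadjusted p under 0.05), with a summed level of 17014 to 20951 in wildtype and 22227 to 24021 in the other group. Striatal markers were higher in 9 of 9 cases (median 0.37, sums of 15869 to 20799 and 22459 to 25076), and Pde10a passed (0.37, limma adjusted p = 0.00303). How far below the cortex the dissection reached was not tested. In the oligodendrocyte lineage 9 of 11 were lower (median -0.18, sums of 19442 to 21836 and 17963 to 18938), and Olig1 fell by 0.32 on the log2 scale (limma adjusted p = 0.00173). Among astrocyte markers 6 of 8 were lower (sums of 69114 to 74379 and 63401 to 71310), and Aqp4 fell by 0.29 on the log2 scale (limma adjusted p = 0.00499). Aqp4 did not pass without replicate 1 or without replicate 3 labelled Zmiz1-KO. The 4 markers of meningeal fibroblasts were all higher (sums of 7376 to 8541 and 9618 to 10144), and Col1a2 passed (0.32, limma adjusted p = 0.00464), but not without replicate 3 labelled Zmiz1-KO. Choroid plexus markers ran from 314 to 8258 in wildtype and from 301 to 4812 in the other group, and their extremes lie within groups rather than between them. Microglia (4158 to 4501 and 4209 to 4373), vascular cells (9314 to 10826 and 9772 to 10031), progenitors (5348 to 5693 and 5615 to 6104) and red blood cells (8378 to 12198 and 8042 to 9117) had sums that overlapped, and 0 of their markers passed by limma or limma-voom, with 2, 1, 1 and 0 at an unadjusted p under 0.05. No marker of any list was at 0 in every library. The part of these markers in the values of the 10 genes was not tested.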

How the data were processed

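Total RNA of P7 cortex was made into libraries with a TruSeq v2 kit. The authors aligned the reads to mm10 with STAR in Illumina BaseSpace and normalized counts per gene with DESeq2, and deposited these normalized signal values with 1 column per library. The gene annotation and tool versions are not given in the sources used here. The values of a library are not whole multiples of 1 step, so whole reads were not recovered, depth is not known exactly, and limma (version 3.58.1, R version 4.3.3) took the place of a test for counts.

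Values were analysed as log2(value + 1). Genes that reached 10 in 3 libraries or more, 15800 in all, were fitted with a mean trend and a robust prior, without covariates. P values are two-sided, with Benjamini-Hochberg adjustment across every gene tested, and a gene passed at 0.05. A fold change on this scale understates that of low genes. Within-library ratios were compared by exact permutation tests. The procedure was tested on simulated data. Lengths, coordinates and shared stretches come from GENCODE M21 on GRCm38, the assembly of mm10. Figures were drawn with matplotlib (version 3.10.9).

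The 10 genes and all lists were chosen with earlier results of these data known. The genes named are the 10, Zmiz1, Xist and Ddx3y, marker genes past the threshold, and in each microtubule list those past the threshold or, where fewer than 2 were, those of smallest p up to 2. Other genes were named after their values were seen. Alternatives were limma-voom, 2 other scalings, 2 pseudocounts, 2 filters, a prior without robust estimation, the replicate number as a block, a sex covariate, a threshold of 0.1 and each library left out. Male libraries alone were added after seeing the data.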

Additional observations from a re-analysis of the deposited data

How the results depend on the processing

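In limma, 65 genes passed the threshold. The count was 17 with the prior without robust estimation, 168 with the replicate block, 106 at an adjusted p of 0.1, 153 in male libraries alone, and 12 to 152 with a library left out (30 without wildtype replicate 1, 17, 152 and 12 without replicates 1, 2 and 3 labelled Zmiz1-KO). Under the other settings it was 55 to 72. Of the 10 genes, 0 passed. With the replicate block 2 did, Dpysl3 (limma adjusted p = 0.00328) and Dcx (limma adjusted p = 0.0146), and 1, Dcx, did at an adjusted p of 0.1. With a library left out, 0 to 1 passed. Over all genes tested, deviations of same-numbered libraries from their group means had correlations of -0.0051, -0.11 and -0.0063. Those of differently numbered libraries ran from -0.096 to 0.11. Deviations from means of 3 libraries cannot show whether the replicate numbers pair the samples, and pairing was not tested. Dcx stayed at -0.18 to -0.14 on the log2 scale over all settings, Dpysl3 at -0.17 to -0.11, Dpysl2 at -0.17 to -0.08 and Dpysl4 at 0.09 to 0.11. Signs that turned were all of genes past no threshold. With a library left out, Crmp1 ran from -0.084 to 0.00088, Dpysl5 from -0.043 to 0.043, Dclk2 from -0.0026 to 0.033, Stmn1 from -0.074 to 0.073 and Stmn2 from -0.072 to 6.8e-05. In male libraries alone Crmp1 was at 0.015, Dpysl5 at 0.046 and Stmn1 at 0.076. The within-library ratios moved by less than the replicate spread. Per-kb levels depend on the length used. The tests of edgeR and DESeq2 were not run, since whole reads could not be recovered. The cause of these changes was not tested.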
